A study of Bos taurus with 10 samples.

Results

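A set of 6 genes whose products are typical of the somatic cells around the oocyte was followed through RNA profiles of bovine embryos: VIM, CYP11A1, COL1A1, COL1A2, COL3A1 and SERPINE2. They were chosen by symbol, with results of these libraries known, and all 6 were found among the 28700 genes of the table. The oocyte of the cow is surrounded by cumulus cells, which derive from the granulosa of the follicle, and beyond them by theca and stroma rich in fibroblasts. Cumulus cells are usually stripped from the zygote before culture, and cells that stay attached to the zona pellucida can add their RNA to an embryo library. Early embryos also hold messenger RNA stored by the oocyte and make their own from genome activation onward. The libraries were made from whole embryos, so a transcript of an embryo cell and one of an attached somatic cell cannot be told apart, nor can fewer cells of a type be told apart from less RNA per cell.

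The design holds 4 groups. One-cell embryos received siRNA directed at H1FOO, an oocyte form of linker histone (KD), or control siRNA with no target stated (NC). Morulae were taken 5.5 days after insemination (3 KD and 3 NC libraries), and 8/16-cell embryos 4 days after insemination (2 KD and 2 NC libraries). The labels give neither the number of embryos behind a library nor whether cumulus cells or the zona were removed, and they do not say that replicates came from separate collections, so a p-value here speaks of the spread among these libraries, which may be technical. Levels are FPKM, which corrects fragment counts for gene length and for the size of the library, and so are shares of a library. The number of fragments behind each value is unknown.

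H1FOO stood at 0.0610, 0.191 and 0.251 FPKM in KD morulae, against 0.294, 1.05 and 2.17 FPKM in NC morulae. Earlier, in 8/16-cell embryos, H1FOO was at 0.649 and 0.0736 FPKM in KD libraries, against 50.8 and 10.8 FPKM in NC libraries, so each KD library lay on the low side its label calls for. The pluripotency genes POU5F1 and SOX2, made by the embryo's own cells at these stages, lay between 97.4 and 673 FPKM and between 60.2 and 151 FPKM over the 10 libraries. Between 11103 and 11872 genes per library had at least 1 FPKM. All 13 protein genes of mitochondrial DNA have a 0 throughout the table, so a 0 is reported here only as listed.

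VIM makes vimentin, the intermediate filament protein of mesenchymal cells, which granulosa cells also carry. It stood at 3.44, 11.0 and 43.3 FPKM in KD morulae, against 0.346, 5.40 and 5.42 FPKM in NC morulae. The treatments overlapped, because KD replicate 1 lay below NC replicates 2 and 3. Within each replicate number the KD library was the higher one. The morula libraries spanned 125-fold, with KD replicate 3 at the top and NC replicate 1 at the bottom. At the 8/16-cell stage VIM stood at 31.9 and 41.5 FPKM in KD embryos, against 16.4 and 20.3 FPKM in NC embryos. These groups did not overlap, and the 4 libraries spanned only 2.53-fold.

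CYP11A1 encodes the enzyme that cuts the side chain of cholesterol, the first step of steroid production, in granulosa and theca cells. It stood at 2.25, 7.90 and 15.4 FPKM in KD morulae, against 0.149, 3.13 and 3.77 FPKM in NC morulae. The order of the libraries resembled that of VIM, with KD replicate 3 highest, NC replicate 1 lowest and KD replicate 1 inside the NC range. The spread over the morula libraries was 103-fold. Among 8/16-cell libraries CYP11A1 stood at 29.2 and 16.8 FPKM in KD and at 7.00 and 7.85 FPKM in NC libraries, again without overlap.

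COL1A1 and COL1A2 encode the chains of type I collagen, the main fibre of stroma, and COL3A1 encodes type III collagen of soft connective tissue. COL1A1 stood at 4.21, 8.86 and 4.55 FPKM in KD morulae, against 1.91, 4.02 and 2.89 FPKM in NC morulae. The treatments did not overlap, although KD replicate 1 exceeded NC replicate 2 only narrowly. Before, in 8/16-cell embryos, COL1A1 was at 13.3 and 25.7 FPKM in KD and at 23.1 and 22.0 FPKM in NC libraries, so the KD libraries lay on either side of both NC libraries. KD morula replicate 3, which had the highest VIM of any library, lay above the NC morulae in COL1A1 but below KD morula replicate 2 and every 8/16-cell library.

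COL1A2 was much lower per length than COL1A1. It stood at 0.208, 1.06 and 0.159 FPKM in KD morulae, against 0.664, 0.591 and 1.45 FPKM in NC morulae. COL1A2 in 8/16-cell embryos stood at 0.608 and 3.71 FPKM in KD and at 3.74 and 2.39 FPKM in NC libraries. Treatments overlapped at both stages. COL3A1 stood at 0.629, 2.16 and 1.19 FPKM in KD morulae, against 0.618 and 0.521 FPKM in NC morula replicates 2 and 3, and was listed at 0 in NC morula replicate 1. COL3A1 in 8/16-cell embryos stood at 1.45 and 3.61 FPKM in KD and at 1.26 and 1.44 FPKM in NC libraries, with gaps between the treatments as narrow as these values show.

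SERPINE2 encodes protease nexin-1, a secreted inhibitor of thrombin and plasminogen activators that bovine granulosa cells are known to make. Its mean over the 10 libraries was the highest of the set at 39.3 FPKM, and its range within each stage was the narrowest in fold, among the 5 genes with no value of 0. It stood at 45.9, 23.4 and 35.0 FPKM in KD morulae, against 75.8, 50.1 and 45.0 FPKM in NC morulae. NC replicate 1, the lowest morula library for VIM and CYP11A1, was the highest for SERPINE2. The 8/16-cell levels of SERPINE2 were 32.0 and 33.3 FPKM in KD and 25.1 and 27.8 FPKM in NC libraries, without overlap.

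**Figure D1:**
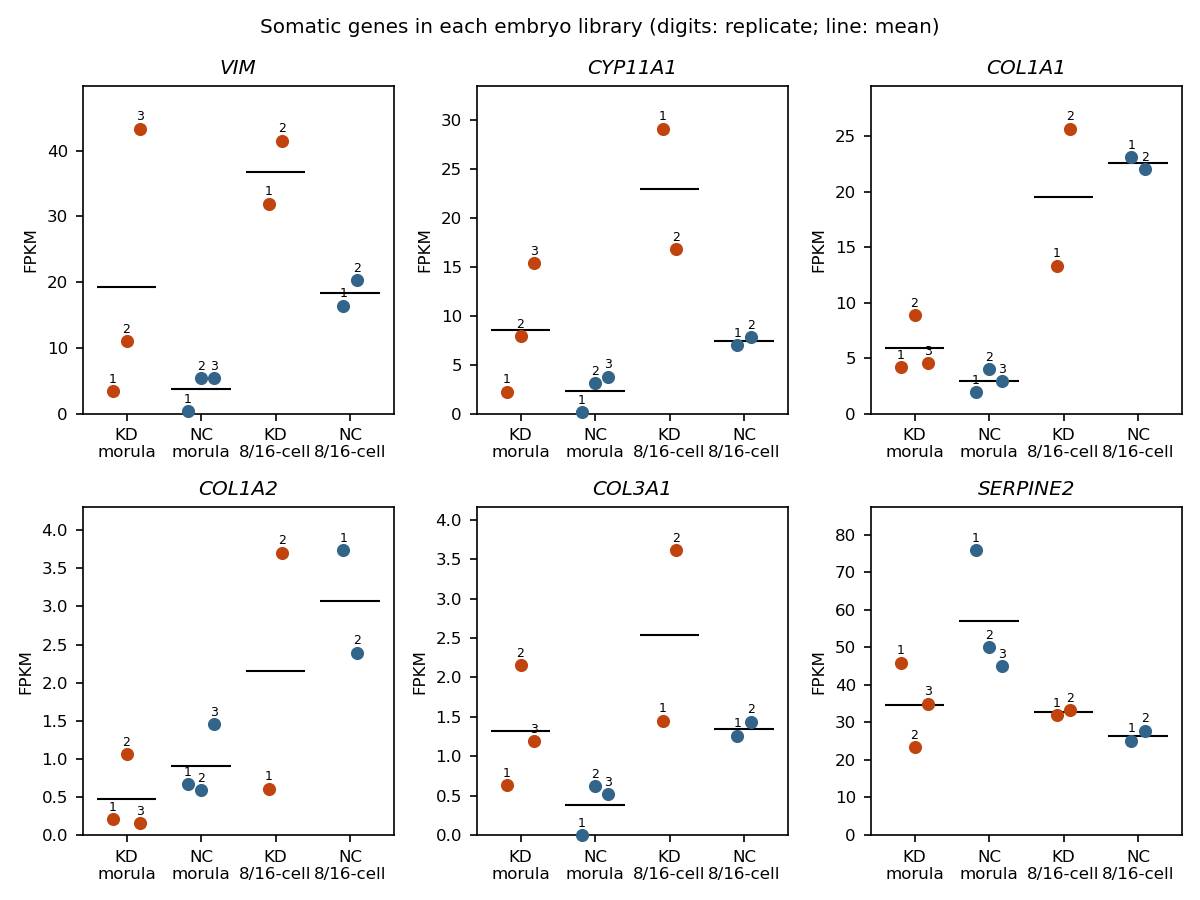
FPKM of each of the 6 genes in each library, with KD in orange, NC in blue, digits for the replicate and a line for the group mean (y axis FPKM, from 0, scaled per gene). KD morula replicate 3 stands apart at 43.3 FPKM for VIM, while for SERPINE2 NC morula replicate 1 is highest at 75.8 FPKM.

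Group means placed KD 8/16-cell embryos highest for VIM (36.7 ± 6.79 FPKM, SD, n = 2) and NC morulae lowest (3.72 ± 2.92 FPKM, SD, n = 3). KD morulae (19.2 ± 21.2 FPKM, SD, n = 3) and NC 8/16-cell embryos (18.4 ± 2.76 FPKM, SD, n = 2) lay between and overlapped each other. NC morulae did not overlap NC 8/16-cell embryos. For CYP11A1 the order was the same, with means of 23.0 ± 8.70 FPKM in KD 8/16-cell embryos (SD, n = 2) and 2.35 ± 1.93 FPKM in NC morulae (SD, n = 3). COL1A1 was ordered by stage: both morula groups (5.87 ± 2.59 FPKM in KD and 2.94 ± 1.06 FPKM in NC, SD, n = 3 each) lay below both 8/16-cell groups (19.5 ± 8.74 FPKM in KD and 22.6 ± 0.789 FPKM in NC, SD, n = 2 each). SERPINE2 ran the other way, highest in NC morulae (57.0 ± 16.5 FPKM, SD, n = 3) and lowest in NC 8/16-cell embryos (26.5 ± 1.88 FPKM, SD, n = 2).

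For KD against NC in morulae, the comparison known when the genes were chosen, differences are given as a description with no test. On the log2(FPKM + 1) scale, which understates changes of low genes, the difference was 1.80 for VIM (SE 0.77), 1.46 for CYP11A1 (SE 0.61), 0.77 for COL1A1 (SE 0.31), 0.73 for COL3A1 (SE 0.33), -0.39 for COL1A2 (SE 0.40) and -0.71 for SERPINE2 (SE 0.25), with n = 3 libraries per group. With the replicate number as a block, which pairs the morula libraries, the SE was 0.30 for VIM, 0.22 for CYP11A1, 0.21 for COL1A1, 0.25 for COL3A1, 0.41 for COL1A2 and 0.16 for SERPINE2. Within the 3 pairs KD was the higher library in 3 of 3 for VIM, CYP11A1, COL1A1 and COL3A1, in 1 for COL1A2 and in none (0) for SERPINE2. The median over all 11761 genes tested was -0.08. In this comparison 0.697% of genes passed at a limma adjusted p under 0.05, 82 in number, and 1398 genes passed with the replicate number as a block. KD libraries lay above all NC libraries for 8.44% of genes, and among the 6 for COL1A1 and COL3A1. The libraries at the ends carried much of it: the VIM difference was 0.94 without KD morula replicate 3, 1.05 without NC morula replicate 1 and 2.60 without KD morula replicate 1, and that of CYP11A1 was 0.93, 0.81 and 2.09. Without KD morula replicate 2 the difference was 0.48 for COL1A1, 0.49 for COL3A1, -0.66 for COL1A2 and -0.46 for SERPINE2. That of COL1A2 was -0.24 without KD morula replicate 3 and -0.19 without NC morula replicate 3.

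The same contrast in 8/16-cell embryos used other libraries, and none of the 6 passed there. Each adjusted p was 1 in limma (Benjamini-Hochberg over all genes tested, two-sided), and 0.017% of genes passed, 2 in number, while 514 genes had an unadjusted p under 0.05. The largest difference was that of CYP11A1, at 1.46 on the log2 scale (95% interval -0.19 to 3.12, unadjusted p = 0.0775 in limma). VIM had 0.96 (95% interval -1.11 to 3.03), COL3A1 0.52 (-0.37 to 1.41), SERPINE2 0.29 (-0.39 to 0.98), COL1A1 -0.27 (-1.11 to 0.57) and COL1A2 -0.54 (-1.62 to 0.53). Each interval holds 0, and all except that of SERPINE2 also hold changes of more than 1 log2 unit. These intervals use an estimate of the spread shared by all 10 libraries, morulae included. With the 8/16-cell libraries fitted alone, the SE was 0.22 in place of 0.94 for VIM and 0.28 in place of 0.75 for CYP11A1. Neither gene passed in that fit (limma adjusted p 0.308 and 0.175). Without KD 8/16-cell replicate 1 the differences of COL1A1 and COL1A2 were 0.18 and 0.23, of the opposite sign, and that of COL3A1 was 0.98. Without KD 8/16-cell replicate 2 the COL3A1 difference was 0.06. KD libraries lay above both NC libraries for VIM, CYP11A1, COL3A1 and SERPINE2, where the share over all genes was 19.3%. Summed FPKM was 669836 in KD 8/16-cell replicate 1 and 449649 in replicate 2, against 430373 and 400788 in NC libraries. Rescaling to an equal sum without MIR2887-1, MIR2887-2 and RN18S1 gave SERPINE2 a difference of 0.18. The median over all genes was then -0.08, against 0.01 as deposited.

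Between the stages COL1A1, VIM, CYP11A1 and COL1A2 were lower in morulae, and SERPINE2 was higher. The contrast took the mean of both treatments at each stage, so the morula difference that was known does not enter its value. Both use the same morula libraries and the same estimate of the spread. The genes were also chosen with results of these libraries known. COL1A1 fell by 2.09 on the log2 scale (SE 0.25, limma adjusted p = 0.00017), and every morula library lay below every 8/16-cell library, as for 19.1% of genes. VIM fell by 1.92 (SE 0.60, adjusted p = 0.0258 in limma), CYP11A1 by 1.57 (SE 0.48, adjusted p = 0.023) and COL1A2 by 1.03 (SE 0.31, adjusted p = 0.0227). SERPINE2 rose by 0.54 (SE 0.20, limma adjusted p = 0.0489). That mean joins unlike values, 0.04 in KD and 1.04 in NC embryos, given with no test, while the other 5 genes were lower in morulae in both treatments. COL3A1 had a difference of -0.69 (SE 0.26, limma adjusted p = 0.0515) and did not pass, but did in the limma fit with the replicate block (adjusted p = 0.0176, the lowest of its alternatives, which reached 0.21).

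Stage calls were common in these data: 43.5% of all genes passed, 28.2% lower and 15.3% higher in morulae, around a median of -0.13. COL1A2 and COL3A1 averaged 0.689 and 0.853 FPKM in morulae and reached the filter of 1 FPKM through the 8/16-cell libraries, so that a fall was favoured for them. COL3A1 also reached it through the KD libraries, which favoured a positive KD difference. COL1A1 passed under every alternative run (limma adjusted p 3.33e-05 to 0.0016). The call for VIM was lost without any 1 of the 4 libraries of 8/16-cell embryos (adjusted p 0.0571 to 0.0847). That for CYP11A1 was lost without KD 8/16-cell replicate 1 (0.0859), NC replicate 1 (0.0614) or NC replicate 2 (0.0723), and that for COL1A2 without KD 8/16-cell replicate 2 (0.0982) or NC replicate 1 (0.0894). SERPINE2 lost its call without any 1 library except KD morula replicate 2 and NC morula replicate 3 (0.0512 to 0.135). COL3A1 passed without KD 8/16-cell replicate 1 (0.025), KD morula replicate 2 (0.0315) or NC morula replicate 2 (0.0488). The columns of the 2 stages treat repeated symbols differently, so the contrast also carries any difference in how they were made.

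**Figure D2:**
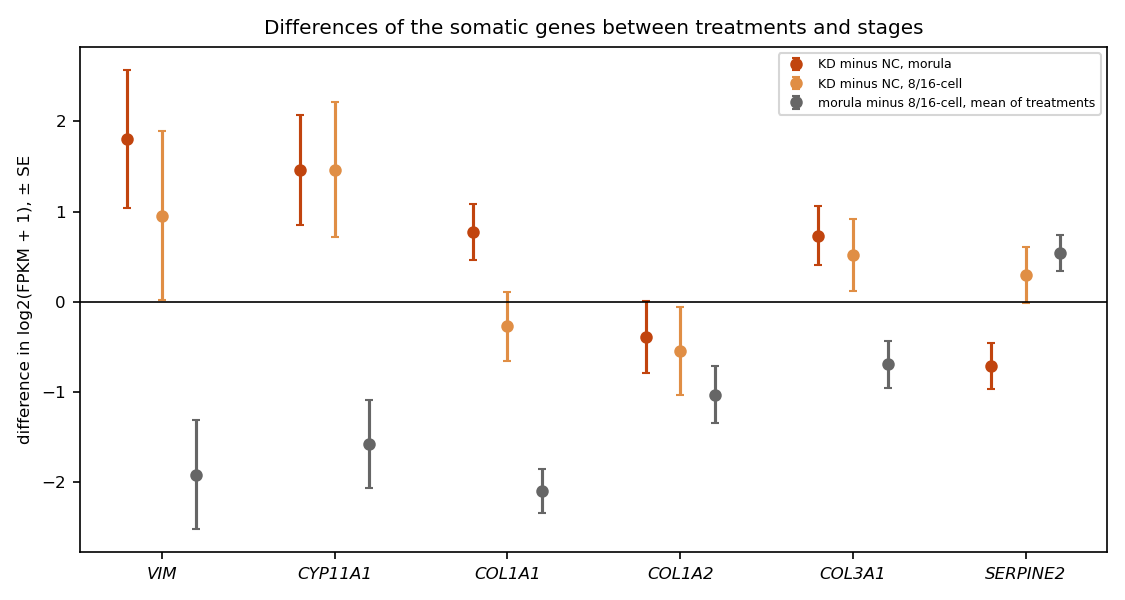
Differences in log2(FPKM + 1) of the 6 genes, with bars of 1 SE from limma: KD minus NC in morulae, KD minus NC in 8/16-cell embryos, and morula minus 8/16-cell as the mean of both treatments. COL1A1 has the lowest stage value, -2.09, and SERPINE2 is the one gene above 0 there, at 0.54.

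Within a library, CYP11A1 kept close to a fixed ratio to VIM, and COL1A1 and SERPINE2 did not. The CYP11A1 to VIM ratio of FPKM values lay between 0.355 and 0.913 over the 10 libraries, a span of 2.58-fold, although VIM itself spanned 125-fold among morulae. The COL1A1 to VIM ratio spanned 52.6-fold, between 0.105 in KD morula replicate 3 and 5.53 in NC morula replicate 1. Leaving out NC morula replicate 1, where VIM is low, it still spanned 13.4-fold. The SERPINE2 to VIM ratio reached 219 in NC morula replicate 1 and fell as low as 0.803 in KD 8/16-cell replicate 2. COL1A2 did not keep a fixed ratio to its partner chain COL1A1 either, at 0.0349 to 0.503.

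**Figure D3:**
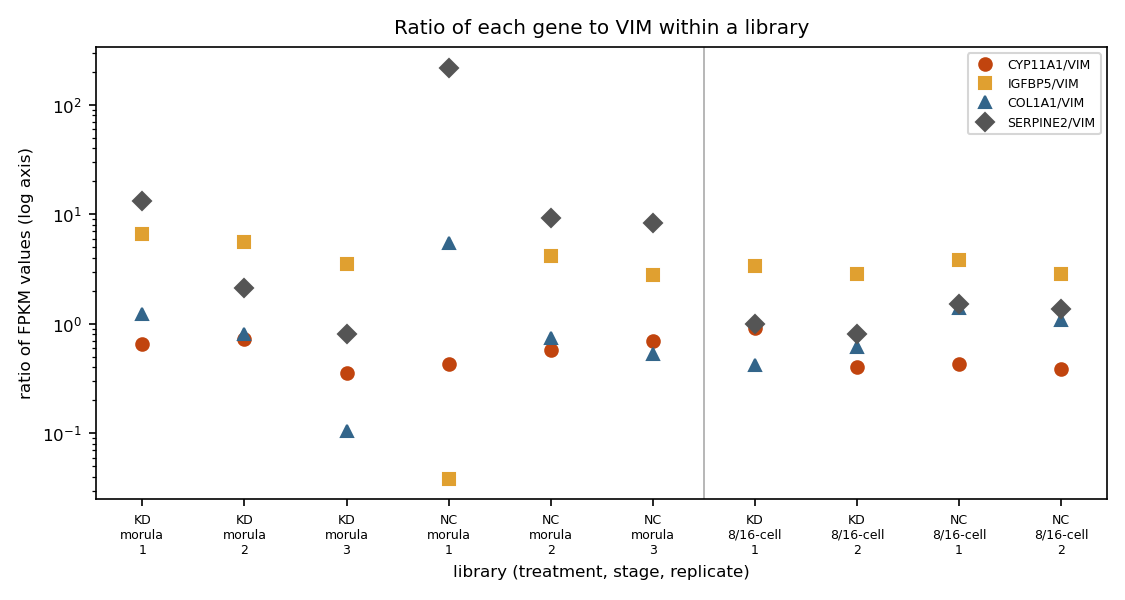
Ratio of the FPKM of CYP11A1, IGFBP5, COL1A1 and SERPINE2 to that of VIM in each library (log axis). CYP11A1 stays between 0.355 and 0.913 throughout, IGFBP5 between 2.79 and 6.62 in all libraries except NC morula replicate 1 (0.0384), and SERPINE2 reaches 219 in that library. The ratio of TNFAIP6, a further cumulus marker not shown, to VIM spanned 175-fold.

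Likeness of pattern was measured as Pearson r of log2(FPKM + 1) over the 10 libraries after the mean of each stage was taken off, as a description with no p; the libraries share treatment as well as stage. VIM and CYP11A1 had r = 0.94, above 99.7% of all genes set against VIM, and 0.89 without NC morula replicate 1. COL1A1 and COL3A1 had 0.83, and VIM and COL3A1 had 0.74. COL1A1 and COL1A2, chains of 1 fibre, had only 0.36, and VIM and COL1A2 had -0.20. SERPINE2 had negative values to the other 5, from -0.14 to COL1A2 through -0.64 to VIM to -0.84 to COL1A1, and 18.6% of all genes had a lower value to VIM than SERPINE2. Without NC morula replicate 1, VIM and COL1A1 had 0.19 in place of 0.51, and VIM and SERPINE2 -0.32.

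The genes most like VIM were TMEM176A (r = 0.98), PLAT, the tissue plasminogen activator that SERPINE2 inhibits (0.98), and FAM129B (0.97). PLAT stood at 2.41, 5.05 and 24.4 FPKM in KD morulae, against 4.68 and 2.46 FPKM in NC morula replicates 2 and 3, and was listed at 0 in NC morula replicate 1. The 8/16-cell levels of PLAT were 32.2 and 31.5 FPKM in KD and 11.7 and 12.9 FPKM in NC libraries. CYP11A1 was closest to PYGL, the liver-type glycogen phosphorylase (0.99), to TMEM176A (0.98) and to IFI27, an interferon-induced gene (0.97). IFI27 stood at 7.54, 20.6 and 82.2 FPKM in KD morulae, against 9.82 and 10.6 FPKM in NC replicates 2 and 3, and was listed at 0 in NC replicate 1.

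In all, 90 genes reached r = 0.9 with VIM and 73 with CYP11A1, of 10756 genes compared, and 42 were on both lists (46.7% of the first and 57.5% of the second).

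The collagens had other companions. COL1A1 was closest to TAF4B, a transcription factor subunit important in germ cells (0.99), to MEIOC, which germ cells need for meiosis (0.97), and to POLR3A, the largest subunit of RNA polymerase III (0.97). TAF4B stood at 5.79, 8.61 and 6.44 FPKM in KD morulae, against 4.17, 5.89 and 4.77 FPKM in NC morulae. TAF4B in 8/16-cell embryos was at 11.9 and 18.5 FPKM in KD and at 16.4 and 15.5 FPKM in NC libraries. COL3A1 was closest to LRCH3 (0.97), TMEM64 (0.95) and GPR155 (0.95), and COL1A2 to GGCX, the vitamin K-dependent carboxylase (0.93), NDUFAF2 (0.93) and SPATA7 (0.92). SERPINE2 was closest to STMP1 (0.97), to LMAN1, a cargo receptor of the secretory pathway (0.96), and to ANXA11 (0.95).

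**Figure D4:**
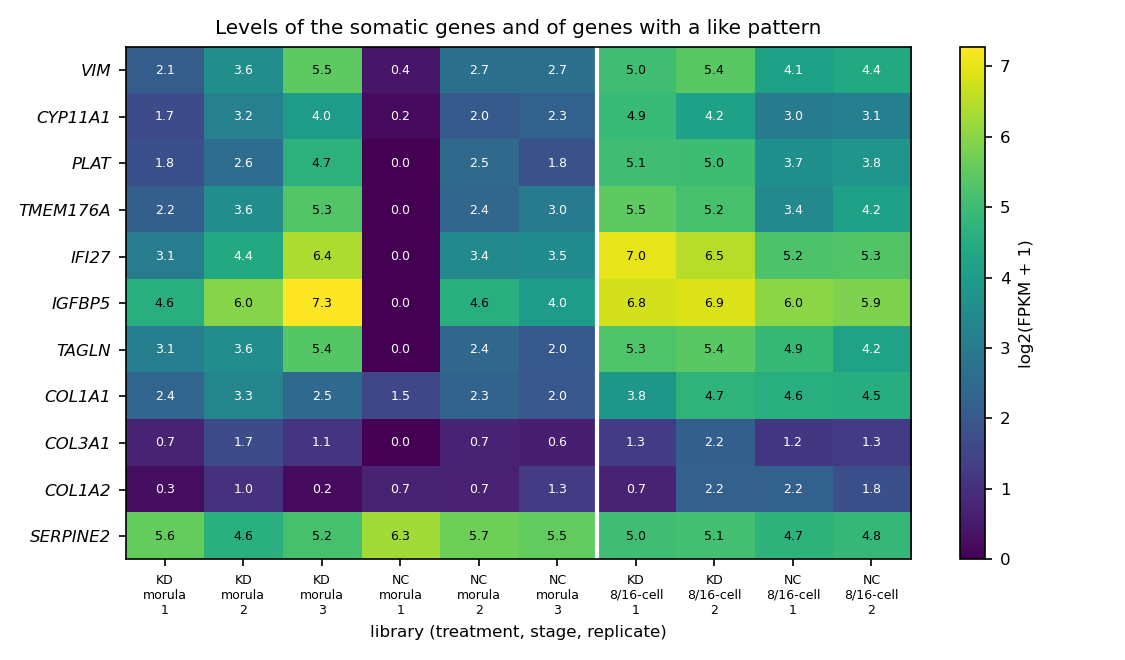
Levels in log2(FPKM + 1) of the 6 genes and of PLAT, TMEM176A, IFI27, IGFBP5 and TAGLN (rows) in the 10 libraries (columns), with the value in each cell. The upper 7 rows are near 0 in NC morula replicate 1 and high in KD morula replicate 3, while SERPINE2 in the bottom row is at 6.3 in NC morula replicate 1.

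Markers of cumulus and granulosa cells were read beside these genes. Of the 27 list genes that are not among the 6, 15 were tested and 12 of these had a positive KD difference in morulae (median 0.60) and 11 in 8/16-cell embryos (median 0.71), where 42% and 52.1% of all genes were positive; none passed in either comparison. Their summed level was 55.1 to 215 FPKM in KD and 30.1 to 63.5 FPKM in NC morulae, and 203 to 207 FPKM in KD and 110 to 115 FPKM in NC 8/16-cell embryos. IGFBP5, which binds insulin-like growth factors, had the highest mean of these genes and set much of the sum, whose range without it was 32.3 to 61.5 FPKM in KD and 29.0 to 40.9 FPKM in NC morulae, and 85.8 to 98.8 FPKM in KD and 51.4 to 51.9 FPKM in NC 8/16-cell embryos. It stood at 22.7, 61.1 and 153 FPKM in KD morulae, against 0.0133, 22.5 and 15.1 FPKM in NC morulae. The 8/16-cell levels of IGFBP5 were 108 and 118 FPKM in KD and 63.3 and 57.7 FPKM in NC libraries. Among the 15, INHA, FST and MRO reached the filter of 1 FPKM through the KD libraries, which favoured a positive KD difference.

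Of the 27 genes, 21 reached 1 FPKM in at least 1 library. The highest values were 153 FPKM for IGFBP5, 20.1 FPKM for TNFAIP6, 19.6 FPKM for MRO, 12.3 FPKM for GJA1 and 11.7 FPKM for KITLG. FST reached 6.10 FPKM at most, INHA 4.09 FPKM, AMH 3.14 FPKM and NR5A1 2.82 FPKM. Some markers of granulosa and expanded cumulus were at or near 0. FSHR, the receptor for follicle-stimulating hormone, was listed at 0 in every library. LHCGR, the receptor for luteinizing hormone, reached 0.138 FPKM at most, and PTX3, a matrix protein of the expanded cumulus, 0.485 FPKM. The aromatase gene CYP19A1 stood at 0.260, 0.143 and 0.0202 FPKM in KD morulae, against 1.41, 1.44 and 0.689 FPKM in NC morulae. Its mean over all libraries, 0.406 FPKM, was below the filter, so CYP19A1 was not tested or counted among the 15. Between stages 4 of the 15 fell in morulae and none (0) rose, against 28.2% and 15.3% of all genes: TNFAIP6, a hyaluronan-binding protein of the cumulus matrix, fell by 2.25 (SE 0.31, limma adjusted p = 0.000384), and INHA, HSD3B1 and AMH fell by 0.98, 1.06 and 0.73. TNFAIP6 and INHA averaged 0.761 and 0.675 FPKM in morulae and reached the filter through the 8/16-cell libraries, which favoured a fall. Of the 15 genes, 8 were highest in KD morula replicate 3 and lowest in NC morula replicate 1 among morulae, as were VIM and CYP11A1 and 5.37% of all genes.

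Among 13 other tested genes of theca cells and steroid production, 7 had a positive KD difference in morulae (median 0.04, against 42% positive over all genes) and 11 in 8/16-cell embryos (median 0.40, against 52.1%), and none passed. Between stages 6 fell and 2 rose, where 28.2% and 15.3% of all genes did. The electron carrier FDX1, which serves CYP11A1, fell by 1.47 (SE 0.20, limma adjusted p = 0.000333), and the lipoprotein receptor SCARB1 fell by 1.34. CYP17A1, the enzyme of androgen production in theca, reached 0.268 FPKM at most.

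Stromal genes split. Of 15 others tested, 12 had a positive KD difference in morulae (median 0.42, against 42% positive over all genes) and 12 in 8/16-cell embryos (median 0.40, against 52.1%), none of which passed. Between stages 5 fell and 3 rose, near the 28.2% and 15.3% of all genes. MGP, matrix Gla protein, fell by 1.98 in morulae. COL5A1, a minor fibre collagen, fell by 1.65 (SE 0.27, limma adjusted p = 0.00105), and COL5A2 by 0.85. COL5A1 and COL5A2 averaged 0.760 and 0.631 FPKM in morulae and reached the filter through the 8/16-cell libraries, which favoured a fall. ACTA2 and COL5A2 reached it through the KD libraries, which favoured a positive KD difference. FN1, fibronectin, rose by 3.34 (SE 0.41, limma adjusted p = 0.000211) and SPARC by 0.73. TAGLN, a smooth muscle and myofibroblast actin-binding protein, stood at 7.57, 10.8 and 40.2 FPKM in KD morulae, against 4.29 and 3.02 FPKM in NC replicates 2 and 3, and was listed at 0 in NC replicate 1. Of the 15 stromal genes, only 1, TAGLN, reached r = 0.9 with VIM (median of the 15, 0.58). The fibroblast markers FAP and DPT reached 0.0291 and 0.0555 FPKM at most. DCN, decorin, lay between 1.23 and 3.17 FPKM without following VIM. LUM, of the same list, stood at 1.25, 3.64 and 23.4 FPKM in KD morulae, against 0.202, 2.33 and 6.89 FPKM in NC morulae. POSTN stood at 2.63, 6.55 and 9.13 FPKM in KD morulae, against 0.0294 and 7.64 FPKM in NC replicates 1 and 2. It was listed at 0 in NC replicate 3. LUM in 8/16-cell embryos was at 19.9 and 23.4 FPKM (KD) against 0.944 and 4.24 FPKM (NC). POSTN there was at 3.68 and 22.9 FPKM (KD) against 1.61 and 4.83 FPKM (NC).

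Enzymes of collagen assembly, tested for 17 genes, had a positive KD difference for 8 in morulae (median 0.00, against 42% positive over all genes) and for 15 in 8/16-cell embryos (median 0.47, against 52.1%), and none passed. Between stages 7 fell and 1 rose, against 28.2% and 15.3% of all genes. Of the 7, PLOD1 averaged 0.678 FPKM in morulae and reached the filter through the 8/16-cell libraries, which favoured a fall. PLOD1 also reached it through the KD libraries, which favoured a positive KD difference. P4HA3, a prolyl hydroxylase subunit, fell by 1.06 in morulae, BMP1, which cuts the ends off procollagen, by 1.26, and P3H1 by 0.80, while the lysyl oxidase LOXL2 rose by 0.94. In the plasminogen pathway, with 9 other genes tested, 4 fell and 3 rose between stages, against 28.2% and 15.3% of all genes. PLAUR, the receptor of urokinase, fell by 1.52, and ANXA2 and S100A10, which form a plasminogen-binding complex, rose by 1.38 and 0.98, as did prothrombin, F2, by 2.43. F2 averaged 0.527 FPKM in 8/16-cell embryos and reached the filter through the morula libraries, which favoured a rise.

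Of 11 other intermediate filament genes tested, 4 rose and 1 fell in morulae between stages, against 15.3% and 28.2% of all genes. KRT18, a keratin of the trophectoderm, rose by 2.23. Of the 11, 3 had a positive KD difference in morulae (median -0.24, against 42% positive over all genes). Likeness to VIM ran from -0.95 for KRT5, a keratin, to 0.89 for LMNA, which makes the lamins A and C of the nuclear envelope. Of 11 other genes of mesenchymal transition, 5 were positive in KD morulae (median -0.22), near the 42% of all genes, and 2 rose and 2 fell between stages, against 15.3% and 28.2% of all genes. Endothelial markers had 2 tested genes and a summed level of 4.60 to 9.88 FPKM. Blood and immune markers had 3 tested genes. HBA lay between 94.8 and 239 FPKM, CSF1R between 24.3 and 46.1 FPKM and CD68 between 1.89 and 5.27 FPKM. Of these 3, 1 rose in morulae and 0 fell, against 15.3% and 28.2% of all genes. It was HBA, by 0.54 (SE 0.19, limma adjusted p = 0.0365). The leukocyte gene PTPRC, not tested, reached 0.117 FPKM at most. The epithelial list had 6 tested genes (median KD difference -0.01 in morulae), the sperm list 4 (0.35), and the embryo lineage list 13 (-0.59).

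The 18S ribosomal RNA gene RN18S1, a measure of ribosomal RNA carried into these poly(A)-selected libraries, was also highest among morulae in KD replicate 3 and lowest in NC replicate 1. It stood at 9053, 8553 and 11581 FPKM in KD morulae, against 2704, 2983 and 8611 FPKM in NC morulae. Among 8/16-cell libraries RN18S1 was at 5640 and 5098 FPKM in KD and at 3383 and 9367 FPKM in NC libraries. After rescaling to an equal sum without RN18S1, MIR2887-1 and MIR2887-2, the KD difference in morulae was 1.85 for VIM and 1.51 for CYP11A1. As deposited it was 1.80 and 1.46. Beyond that rescaling, the part of RN18S1 and of the marker lists in the differences of VIM and CYP11A1 was not tested.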

How the data were processed

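Poly(A) RNA of bovine embryos was profiled in 10 libraries, and every column was matched to a sample by its title (0 left unmatched). The authors deposited FPKM values per gene; the submitters' processing notes name Trimmomatic, Cufflinks, HISAT2 and featureCounts, without versions or roles, and the genome builds bosTau9 and ARS-UCD1.2. Of 28781 symbols, 81 that repeat over 11211 lines were left out: their 8/16-cell columns repeat 1 set of values, while the morula columns vary for 75 of them. Read depth is unknown. Names were compared with RefSeq (ARS-UCD2.0); no sequences were available for use.

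On log2(FPKM + 1), 11761 genes averaging 1 FPKM or more over all libraries were tested with limma 3.58.1 (R 4.3.3): 4 group means, all 10 libraries, trend moderation, Benjamini-Hochberg over all genes, adjusted p under 0.05. The script was tested on simulated data. Members and lists were chosen with earlier results of these data known. Named genes were the 6 members and the 3 genes most alike to each. Of each list, they were up to 3 with the highest mean, those at 0, and up to 4 that passed by smallest p. CYP19A1, LHCGR, PTX3, FST, NR5A1, P4HA1, CYP17A1, FAP, DPT and DCN were added after their values were seen. So were PTPRC, RN18S1, MRO, GJA1, LUM, POSTN, COL5A2, PLOD1 and ACTA2.

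Replicate numbers were taken to pair the morula libraries, although the titles give numbers only and state no pairing. Deviations from group means correlated across genes at r = 0.37, 0.325 and 0.312 for numbers 1 to 3. Libraries of unlike numbers were not compared in this way. The value for the 8/16-cell stage was 0.0558.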

Additional observations from a re-analysis of the deposited data

Results flagged for a closer look

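In 3 of the 106 listed genes tested, FN1, SNAI1 and P4HA1, all KD libraries lay on one side of all NC libraries in morulae and on the other side at the 8/16-cell stage, a share of 2.83%, against 3.31% of all genes. Their limma adjusted p was 0.0513 or higher for KD against NC at either stage and for the difference between the stages. FN1, fibronectin, was at 41.5, 14.9 and 8.00 FPKM in KD morulae, against 222, 89.9 and 74.0 FPKM in NC morulae. FN1 in 8/16-cell embryos was at 3.80 and 3.93 FPKM in KD and at 3.63 and 2.84 FPKM in NC libraries. The KD minus NC difference in morulae less that in 8/16-cell embryos was -2.86 on the log2 scale (SE 0.82, limma adjusted p = 0.466).

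SNAI1, a transcription factor of mesenchymal transition, stood at 62.5, 101 and 87.6 FPKM in KD morulae, against 35.2, 49.9 and 52.2 FPKM in NC morulae. SNAI1 in 8/16-cell embryos was at 119 and 127 FPKM in KD and at 187 and 150 FPKM in NC libraries, a difference between the stages of 1.29 (SE 0.34, limma adjusted p = 0.435). P4HA1, a subunit of prolyl hydroxylase, was at 5.65, 5.02 and 5.16 FPKM in KD morulae, against 6.60, 6.75 and 7.61 FPKM in NC morulae. P4HA1 in 8/16-cell embryos was at 7.64 and 8.12 FPKM in KD and at 5.89 and 4.24 FPKM in NC libraries, a difference between the stages of -0.91 (SE 0.27, limma adjusted p = 0.476).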

How the results depend on the processing

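The count of genes that passed was 2 for KD against NC in 8/16-cell embryos, 11 with no filter on low values and 8 with that stage fitted alone; leaving out 1 library gave 2 to 9, with 9 without KD 8/16-cell replicate 2 and 7 without NC 8/16-cell replicate 2. In morulae it was 82, with 6 under no filter, 139 at a mean of at least 5 FPKM, 9 after rescaling to an equal sum without MIR2887-1, MIR2887-2 and RN18S1, and 0 with that stage fitted alone (limma, with 2103 at an unadjusted p under 0.05). Leaving out 1 library gave 0 to 619 there: 0 in limma without any 1 of the 8/16-cell libraries, KD morula replicate 2 or NC morula replicate 1 (1681 to 2398 at an unadjusted p under 0.05), 2 without KD morula replicate 3, 43 and 132 without NC morula replicates 3 and 2, and 619 without KD morula replicate 1. With the replicate block, 1398 genes passed in morulae; among the 6 genes the block changed the stage call of COL3A1 alone. Between stages 5116 passed, within 1.5 times under every alternative run; quantile normalization gave 2537 higher and 2606 lower, against 1804 and 3312 as deposited.

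Leaving out 1 library gave 8/16-cell KD differences of -0.72 to 0.18 for COL1A1 and -1.32 to 0.23 for COL1A2, the positive values without KD 8/16-cell replicate 1, and the cause was not tested. With no filter, the stage calls of VIM, CYP11A1 and SERPINE2 were lost (limma adjusted p 0.0664, 0.0596 and 0.0874), where 22027 genes were tested. A pseudocount of 0.1 FPKM moved the KD morula differences of COL1A2 to -1.05 and of COL3A1 to 1.86. At a mean of at least 5 FPKM, COL1A2 and COL3A1 were not tested. Likeness values that leave out a morula library were chosen after seeing the data. Depth is unknown, which limits what values under 1 FPKM can show.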
